A study of Homo sapiens with 15 samples.

Results

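The genes described here are the 153 genes that the authors' deposited tables list both for PD45 cells with the first SRC siRNA (siSRC2) and for PD30 cells, each against the PD45 control. They were chosen by gene identifier, from 331 genes listed for siSRC2 and 2845 listed for PD30, out of 4872 genes in the 4 tables of the series. The 153 genes are 46.2% of the siSRC2 list and 5.38% of the PD30 list. Both lists were made against the same 3 control libraries, so the size and the directions of their overlap are not independent of the control. The question is how siSRC2 cells compare with the younger PD30 cells themselves, gene by gene, once both are set beside the PD45 control.

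All cells are WI-38, a line of human fetal lung fibroblasts that divides a limited number of times in culture, and PD is read as population doublings. The PD30 group (3 libraries) received DMSO and lipo3000, a lipofection reagent. The siSRC2 group (3 libraries) is at PD45 and received DMSO and lipo3000 with an siRNA to SRC. The PD45 control (3 libraries) received DMSO and lipo3000 with NC, read as a negative-control siRNA. Neither siSRC2 nor PD30 cells carry NC. A gene on the same side of the control in both may thus differ from it by NC alone, and NC and the named difference cannot be told apart in comparisons with the control. The direct comparison of siSRC2 with PD30 is free of NC, and in it passage and the siRNA cannot be told apart. The series also holds PD45 cells with a second SRC siRNA (siSRC4) in lipo3000 and DMSO, and PD45 cells with GW8510, a kinase inhibitor, in lipo3000 with NC. No label names separate cultures for the libraries of a group. The spread that each p-value measures may therefore be technical.

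SRC encodes a non-receptor tyrosine kinase that relays signals from integrins and growth factor receptors to the cytoskeleton and to gene expression. Fibroblasts near the end of their replicative life stop dividing, lose transcripts of the division machinery, and change what they secrete into the matrix.

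SRC signal was 19.0, 20.5 and 19.9 in the PD45 control libraries and 11.6, 10.6 and 11.6 with siSRC2, or 57.0% of the control. All 3 siSRC2 libraries lay below all 3 control libraries, and SRC is not among the genes listed for PD30. The signal is the authors' normalized expression value, and its read depth is unknown. Of the 11 fibroblast markers checked, COL3A1 is in both lists. Of markers of other cell types, KRT19 of 8 epithelial, TEK of 6 endothelial and FABP4 of 3 adipocyte markers are in both lists, and none of the 6 leukocyte, 7 smooth muscle or 4 neural markers is. In bulk RNA, fewer cells of a type and less RNA per cell cannot be told apart, and the part of other cell types in the results was not tested.

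The promoters shown first belong to genes that stand for contrasting patterns below. CDKN3, CKS2 and TCF19, genes of dividing cells, were low with siSRC2 and high at PD30. SERPINB2, an inhibitor of plasminogen activators, and ANKRD1, a muscle cofactor, were low in both, and TFPI2, a protease inhibitor, was high in both. Each sequence is the RefSeq window of GRCh38.p14 from 250 bases before to 50 bases after the gene's start, 5′ to 3′ on the gene's strand. Capitals mark matches on either strand to TTTGAA (the cell cycle homology region), CCAAT (the CCAAT box) or TATAAA (the TATA box). The CArG box, which can contain the letters of a TATA box, was searched for by its usual definition and has no match in these 6 windows.
CDKN3 (chr14:54396757-54397056, plus strand): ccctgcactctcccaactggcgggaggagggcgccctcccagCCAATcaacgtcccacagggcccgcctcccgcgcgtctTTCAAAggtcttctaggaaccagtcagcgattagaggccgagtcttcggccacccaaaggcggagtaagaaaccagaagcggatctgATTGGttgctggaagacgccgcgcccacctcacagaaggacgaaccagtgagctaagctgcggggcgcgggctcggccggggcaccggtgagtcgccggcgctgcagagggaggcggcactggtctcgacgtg
CKS2 (chr9:89310945-89311244, plus strand): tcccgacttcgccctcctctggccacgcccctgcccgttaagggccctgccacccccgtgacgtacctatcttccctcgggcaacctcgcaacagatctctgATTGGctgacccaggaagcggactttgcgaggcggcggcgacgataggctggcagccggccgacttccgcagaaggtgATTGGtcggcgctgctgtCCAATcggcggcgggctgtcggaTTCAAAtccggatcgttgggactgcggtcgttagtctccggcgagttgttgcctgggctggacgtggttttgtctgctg
TCF19 (chr6:31158339-31158638, plus strand): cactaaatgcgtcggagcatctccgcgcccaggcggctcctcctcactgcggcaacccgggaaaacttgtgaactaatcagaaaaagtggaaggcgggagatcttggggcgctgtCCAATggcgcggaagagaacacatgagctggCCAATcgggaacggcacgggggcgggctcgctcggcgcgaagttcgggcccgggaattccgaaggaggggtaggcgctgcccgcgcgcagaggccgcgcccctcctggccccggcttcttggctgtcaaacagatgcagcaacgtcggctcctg
SERPINB2 (chr18:63887455-63887754, plus strand): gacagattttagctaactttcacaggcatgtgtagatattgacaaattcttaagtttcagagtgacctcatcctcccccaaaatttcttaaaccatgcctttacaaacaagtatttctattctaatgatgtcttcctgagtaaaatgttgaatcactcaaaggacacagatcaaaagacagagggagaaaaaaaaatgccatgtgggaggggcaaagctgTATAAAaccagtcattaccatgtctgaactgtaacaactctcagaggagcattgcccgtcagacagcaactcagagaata
ANKRD1 (chr10:90921038-90921337, minus strand): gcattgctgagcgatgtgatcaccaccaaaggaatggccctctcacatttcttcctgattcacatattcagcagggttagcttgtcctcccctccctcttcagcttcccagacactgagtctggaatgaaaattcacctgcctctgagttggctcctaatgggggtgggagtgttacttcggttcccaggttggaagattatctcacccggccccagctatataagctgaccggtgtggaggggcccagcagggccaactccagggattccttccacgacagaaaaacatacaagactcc
TFPI2 (chr7:93890704-93891003, minus strand): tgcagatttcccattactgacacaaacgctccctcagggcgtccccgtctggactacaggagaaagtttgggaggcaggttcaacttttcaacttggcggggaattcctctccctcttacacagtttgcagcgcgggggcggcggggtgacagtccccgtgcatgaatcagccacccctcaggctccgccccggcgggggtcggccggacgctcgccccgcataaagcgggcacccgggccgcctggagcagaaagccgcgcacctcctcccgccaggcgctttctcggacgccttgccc
The CDKN3 window holds 1 TTTGAA match and 2 CCAAT matches, that of CKS2 1 and 3, and that of TCF19 no TTTGAA match and 2 CCAAT matches. The SERPINB2 window holds 1 TATAAA match, and those of ANKRD1 and TFPI2 hold no match to any of the motifs. Windows were found for 108 of the 153 genes. Of the 8 windows of genes lower with siSRC2 and higher at PD30, 5 hold CCAAT, 3 hold TTTGAA and 0 hold TATAAA. CDKN3, CKS2 and TCF19 are among these 8. Of all 27305 windows, 35.7% hold CCAAT and 15.4% TTTGAA. The 11 windows of genes higher with siSRC2 and lower at PD30 hold CCAAT in 27.3%, TTTGAA in 9.09% and TATAAA in 18.2%. Of the 37 windows of genes lower in both, 11 hold TATAAA, or 29.7%, against 11.95% of all windows and 5.77% of the 52 windows of genes higher in both. CCAAT is in 25% of the windows of genes higher in both and 37.8% of those lower in both, and TTTGAA in 17.3% and 13.5%. Over the 108 windows together, 32.4% hold CCAAT, 16.7% TTTGAA and 14.8% TATAAA. Whether any direction group departs from all windows was not tested. The CArG box has a match in 4 of the 108 windows (3.70%) and in 1.29% of all windows. These are matches of letters, not sites shown to be bound.

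Most of the 153 genes stood on the same side of the PD45 control with siSRC2 as at PD30. The authors' deposited tables list 68 as higher in both and 56 as lower in both. A further 18 were higher with siSRC2 and lower at PD30, and 11 were lower with siSRC2 and higher at PD30. The authors' tables call 2.64% of the 12549 genes tested for siSRC2 (1.38% higher, 1.26% lower). For PD30 they call 15.3% of 18575 genes (8.24% higher, 7.07% lower). These shares are the background for the counts by gene list below. Nothing is read from the directions of the 153 genes, because those directions chose the genes. In 138 of the 153 genes the control libraries overlapped neither the siSRC2 nor the PD30 libraries. Listing against these same control libraries favours such separation, so nothing is read from this count either.

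Where a gene lies between the control and PD30 is given here as its share of the gap: the siSRC2 minus control difference divided by the PD30 minus control difference, in percent, on group means of log2(signal + 1). A share of 0% is the PD45 control level and 100% the PD30 level, a share above 100% lies past PD30, and a negative share lies further from PD30 than the control does. The error given is a standard error (SE) propagated from the spread of the 3 groups. Listing asked for a fold of at least 1.5 from the control in both groups, which tends to leave out same-direction genes with small shares. Shares therefore describe the listed genes only, not the PD30 list as a whole. Among the 124 genes of the same direction, the median share was 66.2%, with quartiles of 48.6% and 94.6%. The share was at most 50% for 36 of them, between 50% and 100% for 61 and above 100% for 27. On linear signal in place of log2(signal + 1), the share moved by more than 1.5 times in 12 of the 124 genes of the same direction and in 19 of the 29 of opposite direction, and changed sign in none. The linear share is given below for each gene with a printed share that moved so far. The median absolute difference of the 124 genes from the control was 0.69 with siSRC2 and 0.92 at PD30, on the log2(signal + 1) scale. In the authors' deposited tables as a whole, the median absolute log2 fold change was 0.75 for siSRC2 and 1.08 for PD30.

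**Figure D1:**
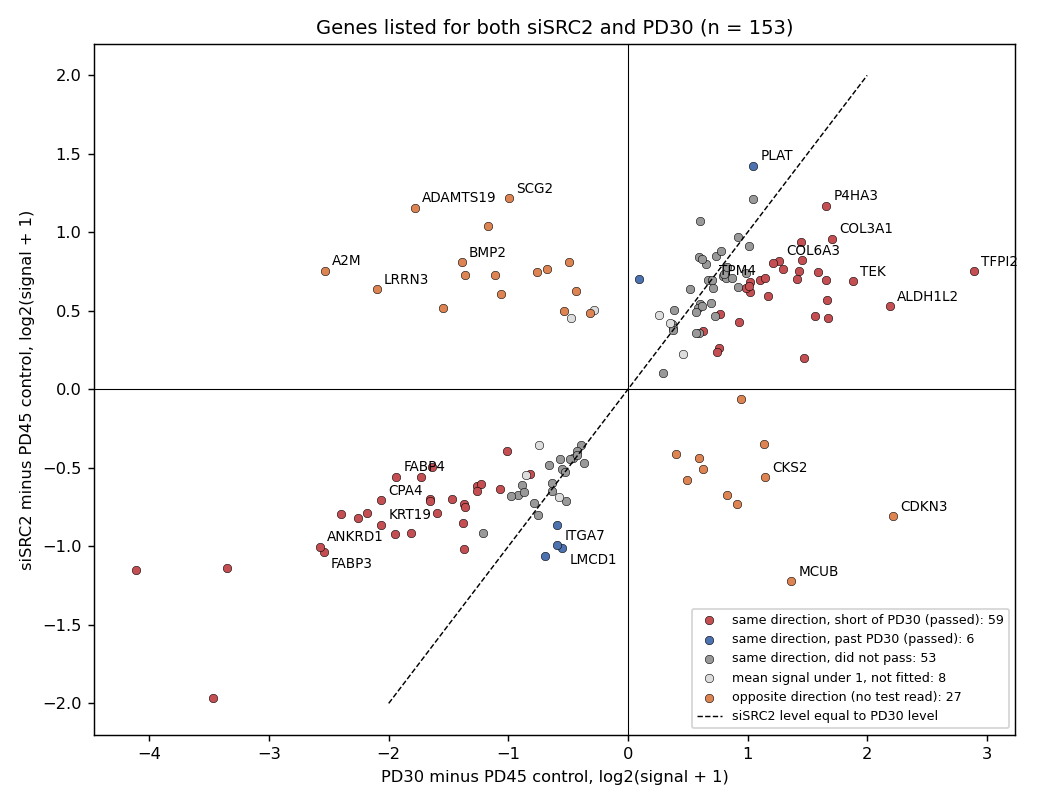
Each point is 1 of the 153 genes, plotted by its PD30 minus PD45 control difference (x axis) and its siSRC2 minus PD45 control difference (y axis), both on the log2(signal + 1) scale, with colours for the direct comparison of siSRC2 with PD30. In the upper right and lower left, points between the horizontal axis and the dashed line lie part of the way to PD30 (the 59 red points passed as short of it) and points beyond the line lie past it (the 6 blue points passed), while the 27 orange points lie away from PD30, as do 2 of the 8 pale points, which were too low to be fitted.

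The direct comparison of siSRC2 with PD30 was fitted with limma on log2(signal + 1) for the 145 genes whose mean signal over the 9 libraries reached 1. Of these, 92 passed at an adjusted p of 0.05, or 63.4% (32.4% with siSRC2 higher and 31.0% with siSRC2 lower). The listing fixes that genes of opposite direction differ between siSRC2 and PD30, so the test is read only for the 118 fitted genes of the same direction, of which 65 passed (55.1%). The p-values were adjusted over all 145 fitted genes. All 27 fitted genes of opposite direction passed, which makes the threshold easier to pass for the 118. The fit also drew its shared estimate of spread from these 145 genes alone. Listing by p-value in the same libraries favours genes of small spread, so the intervals and p-values may be too favourable. How far this goes was not tested. In 59 of the 65, siSRC2 fell short of the PD30 level, and in 6 it lay past it. The other 53 did not pass, which does not show that they reached the PD30 level. Of the 59 that fell short, 30 are genes higher in both and 29 genes lower in both. The libraries of siSRC2 and PD30 did not overlap in 75 of the 124 genes of the same direction, and in 104 of all 153 (68.0%).

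**Figure D2:**
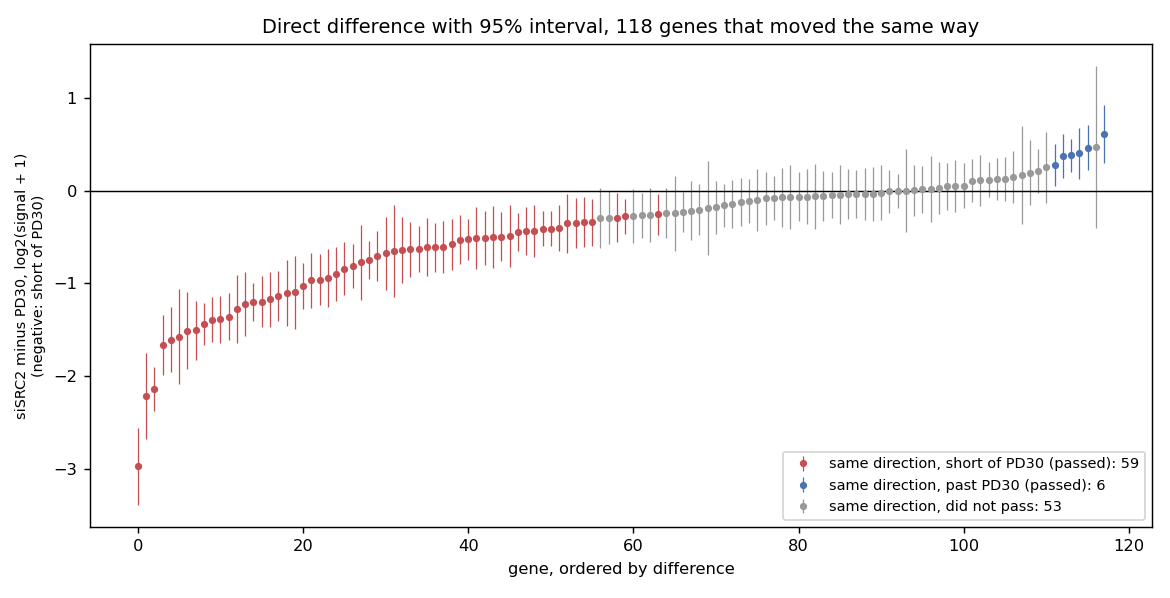
Difference between siSRC2 and PD30 on the log2(signal + 1) scale (y axis) for the 118 fitted genes of the same direction, ordered by size (x axis), with the sign set so that negative values are short of PD30 and bars for the 95% limma interval. The 59 red points lie below 0 and the 6 blue points above it, and the 53 grey points did not pass.

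All 4 collagen and collagen-processing genes in both lists were higher in both, and 3 of them passed as short of PD30, with a median share of 67.6%, beside 66.2% for all genes of the same direction. The siSRC2 list holds 8 genes of this group, all higher, and the PD30 list 13 higher and 10 lower. COL6A3, an alpha chain of type VI collagen, had a signal of 596, 629 and 547 in the control, 958, 1055 and 1117 with siSRC2, and 1538, 1271 and 1463 at PD30. The 3 groups did not overlap, and siSRC2 covered 64.7% of the gap (SE 6.82). COL3A1, the chain of type III collagen, stood at 108, 114 and 122 in the control, 201, 222 and 252 with siSRC2, and 397, 372 and 361 at PD30. It covered 56.2% (SE 5.75) and was lower than PD30 by a log2 difference of -0.75 (limma, adjusted p = 1.27e-05).

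P4HA3, a subunit of collagen prolyl hydroxylase, stood at 1.76, 1.65 and 2.01 in the control, 5.93, 6.47 and 3.84 with siSRC2, and 8.02, 8.25 and 7.31 at PD30. Its difference from PD30 passed (log2 difference -0.49, limma adjusted p = 0.0139). Without siSRC2 replicate 3, the lowest of its siSRC2 libraries, it did not (-0.30, limma adjusted p = 0.0723). COL4A1, a basement membrane collagen, had a siSRC2 signal of 205, 201 and 169.6 and a PD30 signal of 238, 204 and 239.6, and these overlapped. Its share was 75.2% (SE 10.98) and its difference from PD30 did not pass, though it did in a fit of the 6 siSRC2 and PD30 libraries alone (limma adjusted p = 0.0457) and with groups scaled to the authors' fold changes (0.044).

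Other matrix genes differed in how far they lay toward PD30. ELN, LAMA2 and MXRA5 are the 3 of this group in both lists, all higher in both. ELN encodes elastin, the core of elastic fibres, and had a signal of 0.47, 0.71 and 0.62 in the control, 1.17, 1.85 and 0.69 with siSRC2, and 4.03, 4 and 4.23 at PD30. It covered 27.1% of the gap (SE 13.3) and was short of PD30, and 1 siSRC2 library lay within the control range. LAMA2, a laminin chain, covered 71.02% (SE 5.99), and MXRA5, a matrix-remodelling protein, 114% (SE 31.8). Neither passed against PD30, but LAMA2 did without control replicate 3 (limma adjusted p = 0.0358), with a pseudocount of 5 (0.0291) or with groups scaled to the authors' fold changes (0.0268).

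**Figure D3:**
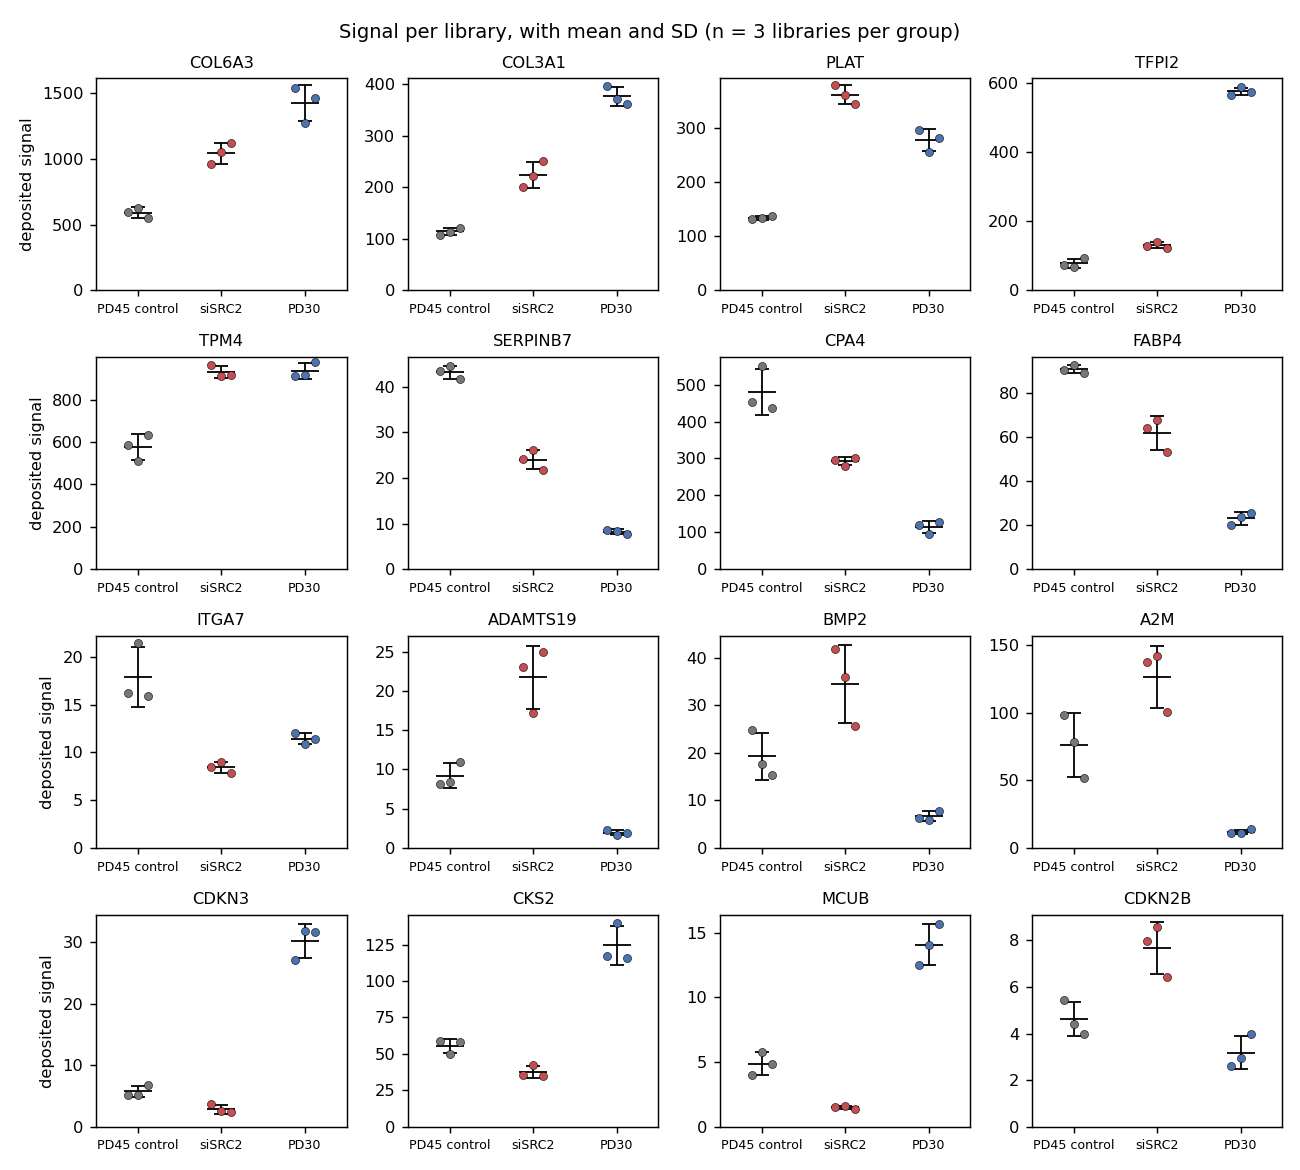
Deposited signal (y axis, from 0) in each of the 3 libraries of the PD45 control, siSRC2 and PD30 for 16 genes, with horizontal lines for the mean and bars for the SD (n = 3). In the first 9 panels siSRC2 lies between control and PD30 (COL6A3, COL3A1, TFPI2, SERPINB7, CPA4, FABP4), among the PD30 libraries (TPM4, which did not pass) or past PD30 (PLAT, ITGA7), and in the other panels it lies on the other side of the control from PD30.

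Genes of the plasminogen system and other proteases lay past, toward and away from PD30. Of 8 members of this group in both lists, 3 were higher in both, 4 lower in both and 1 of opposite direction. PLAT, the tissue plasminogen activator, had a signal of 131, 133 and 138 in the control, 379.6, 362 and 344 with siSRC2, and 297, 256 and 282 at PD30. All siSRC2 libraries lay above all PD30 libraries. Its share was 136% (SE 9.13) and its log2 difference from PD30 was 0.38 (limma, 95% interval 0.20 to 0.56, adjusted p = 0.00129). TFPI2, a secreted inhibitor of serine proteases, plasmin among them, stood at 72.5, 67.6 and 91.9 in the control, 127, 141 and 123 with siSRC2, and 564, 586 and 574 at PD30. The siSRC2 libraries lay above the control and far below PD30, at 26.1% of the gap (SE 3.93), or 10.6% on linear signal. TFPI2 was 4.41-fold lower with siSRC2 than at PD30 (log2 difference -2.14, limma adjusted p = 2.73e-09).

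SERPINB2, whose promoter is printed above, had a signal of 119, 121 and 111 in the control, 65.7, 59.5 and 48.05 with siSRC2, and 39.9, 44.1 and 50.7 at PD30. The siSRC2 and PD30 libraries overlapped. The difference passed (log2 difference 0.35, limma adjusted p = 0.0233). It did not pass without PD30 replicate 1 (limma adjusted p = 0.11), PD30 replicate 2 (0.0578), siSRC2 replicate 1 (0.115) or siSRC2 replicate 2 (0.0762), or with groups scaled to the authors' fold changes (0.0546). SERPINB7, a related serpin, stood at 43.3, 44.5 and 41.6 in the control, 24.2, 26.1 and 21.8 with siSRC2, and 8.68, 8.31 and 7.71 at PD30. CPA4, a secreted carboxypeptidase, stood at 452, 552 and 437 in the control, 297, 279.8 and 303 with siSRC2, and 119, 96.2 and 128 at PD30. Both were above PD30 with siSRC2, by log2 differences of 1.44 and 1.36, with shares of 36.4% (SE 3.4) and 34.1% (SE 4.23). The share of SERPINB7 was 54.8% on linear signal. ADAMTS9, a protease of matrix proteoglycans, was higher in both and short of PD30 (share 60.7%, limma adjusted p = 0.00748). Its mean signals were low, at 0.67 in the control, 1.57 with siSRC2 and 2.38 at PD30.

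ADAMTS19, a secreted metalloprotease of the same family, was the member of opposite direction. It stood at 8.1, 8.41 and 11 in the control, 23.1, 17.2 and 24.9 with siSRC2, and 2.28, 1.66 and 1.9 at PD30. The 3 groups did not overlap, and siSRC2 lay away from PD30, at a share of -64.97% (SE 14.9), or -174% on linear signal. The siSRC2 mean was 11.2-fold above that of PD30.

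Cytokine and receptor genes lay toward PD30 or away from it. Of 6 in both lists, 3 were higher in both, 1 lower in both and 2 of opposite direction. CXCL12, a chemokine of stromal cells, had a signal of 3.58, 3.23 and 2.67 in the control, 6.61, 6.33 and 5.05 with siSRC2, and 12.2, 10.9 and 11.4 at PD30. It covered 47.1% of the gap (SE 7.28). TNFRSF21, a death-domain receptor, covered 59.3% (SE 5.26), and IL7R, the interleukin 7 receptor chain, which was lower in both, 49.1% (SE 5.72). These 3 genes passed as short of PD30. IL1R1, the signalling receptor of interleukin 1, stood at 38.8, 35.9 and 29.2 with siSRC2 and 29.1, 32.1 and 31.8 at PD30. These libraries overlapped, and the difference did not pass, at a share of 122% (SE 20.3). C3, the central complement component, had a signal of 6.6, 4.3 and 2.94 in the control, 7.77, 6.91 and 5.73 with siSRC2, and 0.79, 1.18 and 0.63 at PD30. Its siSRC2 and control libraries overlapped. TNFSF18, a ligand of the TNF family, was also of opposite direction, at a share of -57.2% (SE 15.8), or -98.6% on linear signal.

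Growth factor genes held 4 members of opposite direction among 9, beside 29 among all 153 genes. A further 2 were higher in both and 3 lower in both. These counts take in SLITRK1 and NOTCH2NLC, which match the list by the start of their symbols. SLITRK1 and NTN1, both of opposite direction, had a mean signal under 1 and were not fitted. BMP2, a bone morphogenetic protein, had a signal of 24.9, 17.6 and 15.3 in the control, 41.8, 35.9 and 25.6 with siSRC2, and 6.22, 5.83 and 7.85 at PD30. Its lowest siSRC2 library was just above the highest control library, and all PD30 libraries were lowest. NOG, a secreted antagonist of BMP proteins, was lower in both: 4.37, 4.79 and 3.63 in the control, 2.72, 2.99 and 2.84 with siSRC2, and 2.31, 2.56 and 2.73 at PD30. SEMA6D, a membrane semaphorin, stood at 5.76, 3.85 and 3.43 in the control, 8.47, 8.14 and 6.68 with siSRC2, and 1.69, 1.26 and 1.38 at PD30. NTN1, the guidance cue netrin 1, was listed near 0 at PD30, with 0.03, 0 and 0.01, and stood at 0.73, 0.98 and 0.57 with siSRC2. The file gives 2 decimals, so no fold is given for it.

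Of the receptors and ligands of the same direction, FGFR4, a fibroblast growth factor receptor, covered 29.7% of the gap (SE 9.05), or 18.6% on linear signal, and was short of PD30 by a log2 difference of -1.10 (limma, adjusted p = 4.99e-05). PDGFD, a platelet-derived growth factor ligand, covered 65.5% (SE 12.7) and passed as short of PD30 (limma adjusted p = 0.0265). It did not pass without PD30 replicate 2 (limma adjusted p = 0.0921), siSRC2 replicate 2 (0.118) or siSRC2 replicate 3 (0.0794). TEK, the receptor of angiopoietins and a marker of endothelium, stood at 6.22, 7.41 and 8.53 in the control, 11.6, 11.7 and 14.1 with siSRC2, and 31.4, 28.8 and 29.02 at PD30. It was short of PD30 by a log2 difference of -1.19. TEK stood alone among the 6 endothelial markers in the siSRC2 list, and TIE1 is also in the PD30 list.

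**Figure D4:**
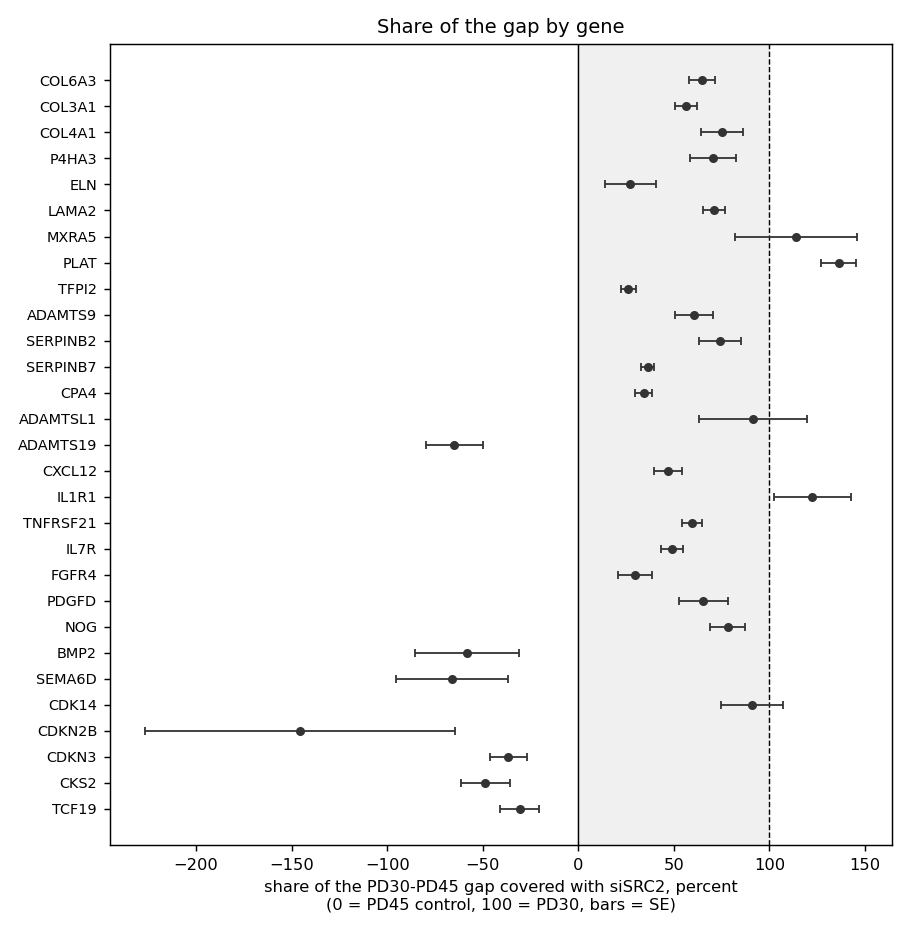
Share of the PD30-PD45 gap covered with siSRC2 (x axis, percent) for 29 genes of the matrix, protease, cytokine, growth factor and cell cycle groups (y axis), with bars for the SE. The shaded band runs from the PD45 control (0) to PD30 (100): the collagens sit inside it, PLAT lies past it, and ADAMTS19, BMP2, SEMA6D, CDKN2B, CDKN3, CKS2 and TCF19 lie below 0.

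Of genes on the mitosis and chromosome segregation list, 91 were listed as higher and 2 as lower at PD30, and none was listed for siSRC2. Of the replication and nucleotide list, 78 were higher and 16 lower at PD30, against 1 higher and 2 lower for siSRC2. Over all genes tested, 8.24% were listed as higher and 7.07% as lower at PD30, against 1.38% and 1.26% for siSRC2. Fewer genes were tested for siSRC2 (12549, against 18575 for PD30), so a gene outside its list may not have been tested. Genes outside the siSRC2 list are not shown to be unchanged, so how siSRC2 and PD30 cells compare in them is not analysed here. CDKN3, a phosphatase that acts on cyclin-dependent kinases and is made in dividing cells, had a signal of 5.15, 5.25 and 6.83 in the control, 3.7, 2.52 and 2.38 with siSRC2, and 27.1, 31.9 and 31.6 at PD30. The siSRC2 mean was 10.5-fold below the PD30 mean, where the control mean was 5.26-fold below it. CKS2, a small subunit that binds cyclin-dependent kinases, stood at 58.7, 50.03 and 58.1 in the control, 35.3, 42.3 and 34.9 with siSRC2, and 117, 139.9 and 116 at PD30. Its groups did not overlap, and the share was -48.7% (SE 12.8), or -26.3% on linear signal. TCF19, a gene expressed late in the G1 phase, stood at 4.13, 3.24 and 3.54 in the control, 2.65, 2.68 and 2.56 with siSRC2, and 8.54, 7.99 and 11.2 at PD30.

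CDKN2B, the CDK4 and CDK6 inhibitor p15, lay the other way: 5.42, 4.42 and 4 in the control, 7.97, 8.58 and 6.44 with siSRC2, and 2.62, 2.93 and 4 at PD30. A control and a PD30 library were equal at 4, and its share carries a wide error (-146%, SE 81.01). CDK14, a cyclin-dependent kinase of membrane signalling, was higher in both (share 90.9%, SE 16.1). TP53INP1, a p53 target that promotes cell cycle arrest, was lower in both, with 14.9, 14.1 and 10.8 in the control, 7.51, 7.34 and 6.57 with siSRC2, and 7.48, 7.67 and 7.05 at PD30. It is the 1 p53 target in the siSRC2 list, where the PD30 list holds 1 higher and 19 lower. Neither CDK14 nor TP53INP1 passed against PD30. The histone genes H2BC5 (higher with siSRC2, lower at PD30) and H2BC21 (lower in both) belong to near-identical families, and their levels are uncertain.

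The contractile and keratin list has 4 members in both lists, 1 higher in both and 3 lower in both. KRT19, a keratin of simple epithelia, stood at 123, 148 and 134 in the control, 73.3, 75.1 and 72.3 with siSRC2, and 32.5, 29.1 and 32.8 at PD30. The groups did not overlap, and it covered 41.8% (SE 2.55). KRT8 and KRT18, other epithelial markers, are in the PD30 list and not in the siSRC2 list. The other 2 lower members, KRTAP2-3 and KRTAP1-5, belong to a family of near-identical copies. Outside that list, ANKRD1, a nuclear cofactor of stretched muscle, had a signal of 10.2, 6.67 and 4.93 in the control, 4.51, 2.92 and 1.95 with siSRC2, and 0.23, 0.45 and 0.35 at PD30. All siSRC2 libraries lay below all control libraries and above all PD30 libraries (log2 difference from PD30 1.58, limma adjusted p = 5.09e-05). MYOZ2, a sarcomere protein that binds calcineurin, was lower in both and short of PD30 (share 47.4%), and was chosen after its values were seen.

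TPM4, a tropomyosin of non-muscle actin filaments, was the member higher in both. It stood at 584, 511 and 632 in the control, 961, 912 and 918 with siSRC2, and 911, 916 and 976 at PD30. The siSRC2 minus PD30 difference was -0.01 on the log2 scale, with a 95% limma interval of -0.19 to 0.18. Small differences were also measured for LINC00513, a noncoding RNA (interval -0.28 to 0.28), and MRS2, a mitochondrial magnesium channel (-0.27 to 0.24). CAB39L, a scaffold protein related to CAB39, had an interval of -0.27 to 0.31. For each of these genes, differences of the sizes inside its interval are not excluded.

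Fatty acid binding proteins were lower in both and short of PD30. FABP3, the heart type, had a signal of 25.7, 24.8 and 17.3 in the control, 12.6, 10.8 and 8.15 with siSRC2, and 2.45, 2.68 and 4.02 at PD30. FABP4, the adipocyte type, had 90.5, 92.5 and 88.9 in the control, 64.2, 67.9 and 52.98 with siSRC2, and 19.9, 23.6 and 25.6 at PD30. In both the 3 groups did not overlap, and siSRC2 was above PD30 by log2 differences of 1.51 and 1.38. The shares were 40.7% (SE 8.15) and 28.6% (SE 5.72), and that of FABP3 was 61.9% on linear signal. ADIPOQ and PLIN1, the other adipocyte markers checked, are in neither list.

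Of the amino acid and stress list, 2 genes are in both lists, both higher and both short of PD30. ALDH1L2, a mitochondrial enzyme of folate metabolism, stood at 2.67, 3.01 and 4.29 in the control, 4.52, 4.92 and 6.17 with siSRC2, and 18.8, 18.1 and 18.7 at PD30. It covered 24.2% of the gap (SE 7.53), or 12.4% on linear signal, and its siSRC2 mean was 3.56-fold below that of PD30. CBS, cystathionine beta-synthase, covered 41.8% (SE 6.82), with 29.8, 28.5 and 31.8 with siSRC2 against 63.1, 55.2 and 60.5 at PD30. The PD30 list holds 18 higher and 8 lower genes of this group, and the siSRC2 list no further gene.

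Further genes higher in both lay at different distances from PD30. DIO2, the enzyme that activates thyroid hormone, had a signal of 3.08, 1.01 and 1.85 in the control, 6.59, 5.1 and 5.27 with siSRC2, and 4.32, 7.14 and 3.76 at PD30. MESD, a chaperone of LDL receptor family proteins, stood at 26.4, 21.7 and 29.99 in the control, 55.8, 51.5 and 47.4 with siSRC2, and 50.03, 50.2 and 49.1 at PD30. In both genes the siSRC2 and PD30 libraries overlapped and the difference did not pass. RIPOR2 stood at 1.69, 1.65 and 2.37 in the control, 4.62, 2.46 and 3.05 with siSRC2, and 9.54, 6.92 and 8.22 at PD30, short of PD30 (log2 difference -1.10, limma adjusted p = 0.000118). LEF1, a transcription factor of the WNT pathway, was short of PD30 at a share of 46.2% (SE 15.2). LEF1 did not pass without PD30 replicate 3 (limma adjusted p = 0.0594) or siSRC2 replicate 2 (0.0518). TBXAS1, thromboxane synthase, which matches the transcription factor list only by the start of its symbol, had a share of 104% (SE 20.03), and SLC44A1, a choline transporter, one of 79.4% (SE 10.4). Neither passed.

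Of the interferon-stimulated list, 2 genes are in both lists, both higher. GBP2, a guanylate-binding protein, stood at 1.17, 1.66 and 2.07 in the control, 3.48, 2.39 and 4.58 with siSRC2, and 5.97, 6.62 and 5.51 at PD30, short of PD30 (share 52.7%). HLA-DMA, which loads peptides onto MHC class II molecules, stood at 3.91, 4.63 and 4.23 in the control, 8.68, 8.18 and 8.09 with siSRC2, and 7.41, 6.78 and 6.95 at PD30. Its siSRC2 libraries all lay above its PD30 libraries, but the difference did not pass (log2 difference 0.21, limma interval -0.03 to 0.45, adjusted p = 0.114).

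Apart from PLAT, 5 genes passed as lying past PD30. ITGA7, the laminin-binding integrin alpha 7, stood at 16.2, 21.5 and 15.9 in the control, 8.44, 8.94 and 7.88 with siSRC2, and 12.01, 10.9 and 11.4 at PD30. LMCD1, a LIM domain regulator of transcription, stood at 30.2, 30.8 and 23.98 in the control, 12.8, 13.7 and 13.9 with siSRC2, and 18.1, 19.6 and 19.1 at PD30. LRP12, a receptor of the LDL receptor family, stood at 17.8, 15.9 and 15.7 in the control, 7.23, 7.74 and 7.13 with siSRC2, and 8.98, 10.1 and 10.4 at PD30. In these 3 genes all siSRC2 libraries were lowest, and the log2 differences from PD30 were -0.40, -0.46 and -0.37 (limma, adjusted p = 0.0129, 0.00280 and 0.00902).

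MARCHF4, a membrane-bound ubiquitin ligase, passed as past PD30 (limma adjusted p = 0.0353), with a share of 147% (SE 17.5). It did not pass without PD30 replicate 1 (limma adjusted p = 0.0741) or 3 (0.146), nor without siSRC2 replicate 1 (0.125), 2 (0.0594) or 3 (0.0503). ZNF616, a zinc finger gene, had a signal of 1.84, 1.41 and 1.6 in the control, 4.26, 3.12 and 2.53 with siSRC2, and 1.91, 1.65 and 1.8 at PD30. Its control and PD30 libraries overlap in these signals, so its share of 754% (SE 604) divides by a gap near 0. The authors' deposited table gives ZNF616 a log2 fold change of 0.96 at PD30, while the ratio of its signals gives 0.14.

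In 11 of the 153 genes the log2 fold change of the authors' deposited tables and the one taken from mean signals were more than 0.5 apart in at least 1 table. Among them, PIEZO2, a mechanosensitive channel, had signals of 1.43, 1.04 and 1.41 with siSRC2, within the control range of 0.6 to 1.7, against 4.54, 4.96 and 4.1 at PD30. MCUB, an inhibitory subunit of the mitochondrial calcium uniporter, had 4.01, 5.77 and 4.85 in the control, 1.5, 1.61 and 1.4 with siSRC2, and 12.5, 14.1 and 15.7 at PD30. Its log2 change with siSRC2 was -1.70 by signal and -0.79 in the authors' deposited table. For CMSS1 the siSRC2 and control libraries overlapped, at 4.94, 3.53 and 5.99 against 5.33, 4.89 and 4.7.

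Further genes of opposite direction lay far from PD30. A2M, the protease inhibitor alpha 2 macroglobulin, had 98.5, 78.03 and 51.9 in the control, 137, 142 and 100.1 with siSRC2, and 10.9, 11.1 and 13.7 at PD30, and every siSRC2 library was above every control library. SCG2, a secretory granule protein, stood at 3.61, 3.05 and 2.09 in the control, 11.7, 8.78 and 4.83 with siSRC2, and 0.92, 1.16 and 0.75 at PD30. LRRN3, a leucine-rich repeat membrane protein, stood at 19.7, 21.8 and 19.8 in the control, 33.6, 32.6 and 30.8 with siSRC2, and 3.66, 4.19 and 4.16 at PD30. GPC4, a cell surface heparan sulphate proteoglycan, had a share of -97.9% (SE 34.1), or -162% on linear signal. On the other side, CBR3, a carbonyl reductase, had 11.7, 12.8 and 17.1 in the control, 7.44, 8.99 and 8.26 with siSRC2, and 26.6, 25.4 and 23.3 at PD30. CDC42EP4, an effector of the GTPase CDC42, had a share of -116% (SE 33.9), and ANKRD35 one of -73.1% (SE 22.1). In all 29 genes of opposite direction the siSRC2 and PD30 libraries did not overlap, which is given with no test.

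Mean signals of the other treated groups were set beside these where those groups' tables list the gene, all against the same control. With siSRC4, COL4A1 had a mean signal of 191 ± 7.44 (SD, n = 3), FABP3 11.2, FABP4 29.2, IL7R 17.2 and CKS2 35.3, each on the same side of the control as with siSRC2. ADAMTS19 (3.53), LRRN3 (11.8), PCDH18 (24.6), HSD17B2 (7.68), TRPA1 (7.07) and ANKRD1 (11.5) stood on the other side of the control from siSRC2. PCDH18 encodes a protocadherin and had a mean of 83.2 with siSRC2, 47.1 in the control and 111 at PD30. HSD17B2, a steroid dehydrogenase, had 26.4, 13.8 and 28.4 in the same order, and TRPA1, an irritant-sensing channel, 28.5, 17.7 and 29.5. GW8510 libraries carry NC as the control does. With GW8510, COL3A1 stood at 202, FABP3 at 14.1, FABP4 at 38.96 and IL7R at 21.9, on the same side of the control as with siSRC2. PLAT (57.4), KRT19 (235), CPA4 (831), SERPINB7 (70.8), CXCL12 (0.927) and LMCD1 (46.8) stood on the other side. These genes were chosen after their values were seen, as examples of either side. The number named on each side does not show how often siSRC4 or GW8510 shared a side with siSRC2. That was not counted.

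The 4 direction groups also differed in median transcript length. By the longest GENCODE transcript of each gene, the median was 4732 bases for genes higher in both and 2597 for genes lower in both. It was 5075 for the 18 genes higher with siSRC2 and lower at PD30, and 3290 for the 11 genes lower with siSRC2 and higher at PD30. For comparison, it was 3908.5 for all members, 3936.5 for the siSRC2 list and 3503.5 for the PD30 list. Median GC content ran from 47.4% to 49.1% over the 4 groups. Transcripts were matched for 152 of the 153 genes, and the part of length in the results was not tested.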

How the data were processed

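Gene expression was measured by RNA sequencing in 15 libraries. Of the tools in the submitters' processing notes, which give no roles, HISAT2, StringTie and RSEM align, assemble and quantify reads, and DESeq2 and edgeR test counts. Those notes name the mouse build GRCm38, while the gene identifiers are human, so the only coordinates given are those of the RefSeq promoter table. Per the file headers, the deposited tables hold the fold ratio and its log2, a p-value with its adjusted value, and a value per library, called signal here because no header states TPM or FPKM. In the tables used, every gene has an adjusted p under 0.05 and a fold of at least 1.5, as checked on the files, and the number of genes tested follows from the ratio of adjusted to raw p. Read depth is unknown, so no counting interval is given.

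Differences were fitted with limma 3.58.1 (R 4.3.3) with an intensity trend on log2 of the signal plus 1, over the 9 libraries of siSRC2, PD30 and the PD45 control. The fit took the 145 of 153 genes at or above a mean of 1, with Benjamini-Hochberg adjustment over these genes, the only ones with values in both groups. This scale understates changes of low genes. The fit was tested on simulated data. That simulation had no listing step, so it cannot show how the test behaves on genes chosen from these same values. Shares, with SE by the delta method, were computed in Python 3.11.15 (pandas 2.3.3, numpy 2.4.6).

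The members and the 20 gene lists were chosen with earlier results of these data known. Genes were named by rule: with a highest group mean of at least 5, the 6 largest siSRC2 differences in each direction group, the 5 largest direct differences each way, the 5 smallest, and up to 4 genes a list. A gene that the rule names is not reported here. Left out were 15 symbols of near-identical families or without a name, a set widened after values were seen. ELN, LAMA2, MXRA5, ADAMTS9, PDGFD, NOG, C3, TNFSF18, NTN1, MYOZ2, ZNF616, PIEZO2, CMSS1 and the histone and keratin-associated genes lie outside the rule and were named after their values were seen. Alternatives were other pseudocounts, filters, scalings and library sets, a fold minimum, and the replicate number as a block, since same-numbered libraries were checked for pairing and did not pair.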

Additional observations from a re-analysis of the deposited data

How the results depend on the processing

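In the direct comparison 65 genes passed, and 62 to 67 in all with other pseudocounts, no filter, another scaling, only 6 libraries or no trend. With a mean signal of at least 5 there were 42 (37 short of PD30), from 85 genes fitted, and with a change of at least 1.5-fold 39 (38 short, 1 past). With the replicate number as a block 63 of the 65 passed, and no call on a named gene changed; same-numbered libraries correlated at -0.145 to 0.161, so the numbers do not pair them. Leaving out 1 library gave 56 to 66 genes, 51 to 60 short of PD30 and 5 to 6 past it. The median share of 66.2% became 68.37% on linear signal and 66.05% to 68.76% with 1 library left out, with 27 to 32 genes above 100% and 28 to 30 below 0%. Signs turned only in differences near 0: LINC00513 with a pseudocount of 5 (0.0018), and, with groups scaled to the authors' fold changes, MESD (-0.0166), CAB39L (-0.0346) and TBXAS1 (-0.0331); the cause was not tested. With 1 library left out, the log2 differences ran from -0.0119 to 0.1036 (MESD), -0.1114 to 0.0825 (LINC00513), -0.0297 to 0.0258 (TPM4), -0.0787 to 0.02 (MRS2), -0.1183 to 0.0954 (CAB39L), -0.0795 to 0.0049 (TP53INP1), -0.1423 to 0.0628 (CDK14), -0.2393 to 0.0411 (TRPA1), -0.0878 to 0.1317 (TBXAS1) and -0.0355 to 0.1183 (MXRA5). With depth unknown, precision rests on 3 libraries a group, where an exact two-sided permutation test cannot go below 0.1.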
